A study of Mus musculus with 26 samples.

Results

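The genes described here are 37 genes of the p53 pathway, out of 25239 genes in the deposited count table, followed in mouse embryonic stem cells with and without Hmces. They were taken by gene symbol and comprise p53 itself with 7 genes that feed back on it or sit close to it, 8 targets tied to cell-cycle arrest or mitosis, 13 tied to apoptosis, 4 tied to DNA repair and nucleotide supply, and 4 with other roles. All 37 symbols were in the count table and in the deposited TPM table of untreated cells, and 36 were in all 4 tables of treated cells.

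p53, encoded by Trp53, is a transcription factor that is held low by MDM2, a ubiquitin ligase whose own gene is a p53 target, and by the related protein MDM4. DNA damage and other stresses stabilise p53, which then binds response elements near its targets and raises genes for cell-cycle arrest (Cdkn1a), apoptosis (Pmaip1, Bbc3, Bax, Perp), repair (Xpc, Ddb2) and its own restraint (Mdm2, Ccng1, Ppm1d). Because p53 is controlled largely at the level of protein, the transcript level of Trp53 does not report p53 activity. HMCES, the product of the gene knocked out here, forms a crosslink with abasic sites in single-stranded DNA.

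The series holds 26 RNA-seq libraries from mouse embryonic stem cells, labelled C57BL/6 and cultured on gelatin in medium with 15% serum. The count table held untreated cells: 2 wild-type (WT) libraries, and 2 libraries each of the HMCES-KO lines whose columns are named KO7 and KO8. A TPM table (reads per gene length, scaled to the same sum in each library) had 2 libraries of untreated WT and 2 of untreated HMCES-KO cells. Each of 4 more TPM tables held 2 WT libraries and 1 library each of the HMCES-KO lines labelled KO1 and KO2, after 2 h with 50 ng/ml activin A (a ligand that signals through SMAD2 and SMAD3), with 10 µM SB431542 (an inhibitor of its receptors), with 10 ng/ml BMP4 (a ligand that signals through SMAD1 and SMAD5) or with 50 nM LDN193189 (an inhibitor of BMP receptors). The sources used here give neither how KO7 and KO8 map to KO1 and KO2 nor the line of the untreated TPM libraries, whose columns are named CCE1 and CCE2 for WT and K81 and K82 for HMCES-KO. The sample titles give the knockout libraries of the count table the same 2 line names as the treated ones, HMCES-KO1 and HMCES-KO2. By these titles KO7 and KO8 are those 2 lines, in an order that is not given. Results in both sets of libraries are therefore not counted as 4 lines. No treated table has an untreated library beside it. Nothing in the labels ties the libraries of a group to separate cultures, and every p-value here rests on differences among libraries of a group that may be technical repeats.

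Depth, in units of 1e+06 read pairs assigned to genes, was 9.57 to 13.5 per library in the count table, and the reads recovered from TPM came to 8.52 to 10.0 in the untreated and 4.04 to 5.43 in the treated tables. Hmces transcript itself stood at 36.4% to 36.98% of the WT mean in KO7, 24.1% to 25.7% in KO8, 21.2% to 22.1% in the untreated TPM libraries, 51.7% to 64.1% in KO1 and 25.03% to 34.0% in KO2, so the transcript was reduced and not absent in every HMCES-KO library. Defining genes of embryonic stem cells (Pou5f1, Sox2, Nanog, Zfp42, Esrrb, Dppa5a) were present in every group and summed to 7569 to 7902 CPM (a library's counts scaled to a sum of 1e+06) in the count table. The WT libraries of that table differed from each other more than the KO7 or KO8 libraries did. Their variance was 4.94 times that of sampling noise, against 1.62 and 1.63. The tests on counts share an estimate of the spread over WT, KO7 and KO8.

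Promoters give a view of which members carry a p53 response element at the start of the gene. RefSeq windows on GRCm38.p6 from 250 bases before to 50 bases after the start were on hand for 29 of the 37 members. A p53 response element was searched on both strands as 2 copies of the 10-base p53 consensus with at most 1 base between them and at most 2 mismatches in all. The C and the G that the consensus fixes in each copy had to match. It was found in 6 members (Cdkn1a, Ccng1, Bax, Ckap2, Gtse1 and Rps27l), and in 218 of 27025 genes with such a window (0.807%). The 4 windows below are those whose match lay within the stretch shown and that no annotated exon overlapped. They are Cdkn1a at chr17:29090729-29090948 on the plus strand, Ccng1 at chr11:40755317-40755536, Bax at chr7:45466929-45467148 and Ckap2 at chr8:22185850-22186069, the last 3 on the minus strand. Each is the 220 bases that end 30 bases before the start, read 5′ to 3′ on the gene's strand, and capitals mark the matched element.
Cdkn1a: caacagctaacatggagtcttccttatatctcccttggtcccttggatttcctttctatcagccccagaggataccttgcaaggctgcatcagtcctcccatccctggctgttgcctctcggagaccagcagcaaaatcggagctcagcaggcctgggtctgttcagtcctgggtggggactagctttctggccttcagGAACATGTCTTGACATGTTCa
Ccng1: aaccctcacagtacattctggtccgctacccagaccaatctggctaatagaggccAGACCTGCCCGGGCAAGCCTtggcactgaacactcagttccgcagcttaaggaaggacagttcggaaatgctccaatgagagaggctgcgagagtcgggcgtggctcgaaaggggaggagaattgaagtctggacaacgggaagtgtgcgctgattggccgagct
Bax: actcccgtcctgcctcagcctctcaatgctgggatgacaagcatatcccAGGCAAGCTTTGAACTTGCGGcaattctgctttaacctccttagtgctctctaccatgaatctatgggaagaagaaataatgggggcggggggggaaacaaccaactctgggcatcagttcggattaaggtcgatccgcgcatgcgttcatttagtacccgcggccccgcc
Ckap2: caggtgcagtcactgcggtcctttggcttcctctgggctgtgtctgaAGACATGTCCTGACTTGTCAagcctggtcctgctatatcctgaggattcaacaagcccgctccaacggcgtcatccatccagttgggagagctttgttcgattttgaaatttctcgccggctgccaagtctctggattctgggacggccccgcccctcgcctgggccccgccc
The match lay 51 bases before the start in Cdkn1a, 195 in Ccng1, 201 in Bax and 203 in Ckap2. Cdkn1a and Ccng1 matched with 1 mismatch each, and Bax and Ckap2 with 2, and the copies in Bax had 1 base between them. Cdkn1a has 2 annotated starts, and the window shown belongs to the upstream one. A match is a description of the letters and not a bound site, and elements farther from the start were not searched.

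In untreated cells the members divided the lines. In KO7, 16 members fell and 2 rose of the 36 tested, where 38.2% of all 13475 genes tested were called (edgeR's quasi-likelihood test, adjusted p under 0.05), 19.2% of all genes being lower and 19.0% higher. The median log2 fold change of the members was −0.16, beside 0.00 over all genes. In KO8, 7 fell and 11 rose, with 38.9% of all genes called (19.3% higher and 19.7% lower) and a median of 0.06 beside −0.01. Without the second KO8 library, the calls in KO8 no longer leaned towards higher. That fit had fewer KO8 libraries, and its share of all genes called is not given. It therefore cannot show whether the direction of the members in KO8 rested on that library. Both comparisons use the same WT libraries, and the lines were therefore also compared directly: KO8 stood above KO7 in 16 members and below it in 2, where 28.2% of all genes were called (13.9% higher and 14.3% lower), with a median of 0.21 beside 0.00. Fas, the death receptor gene, had 0 to 4 counts in a library and was not tested. Since the RNA is from whole cultures, fewer cells of a kind and less RNA per cell cannot be told apart.

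**Figure D1:**
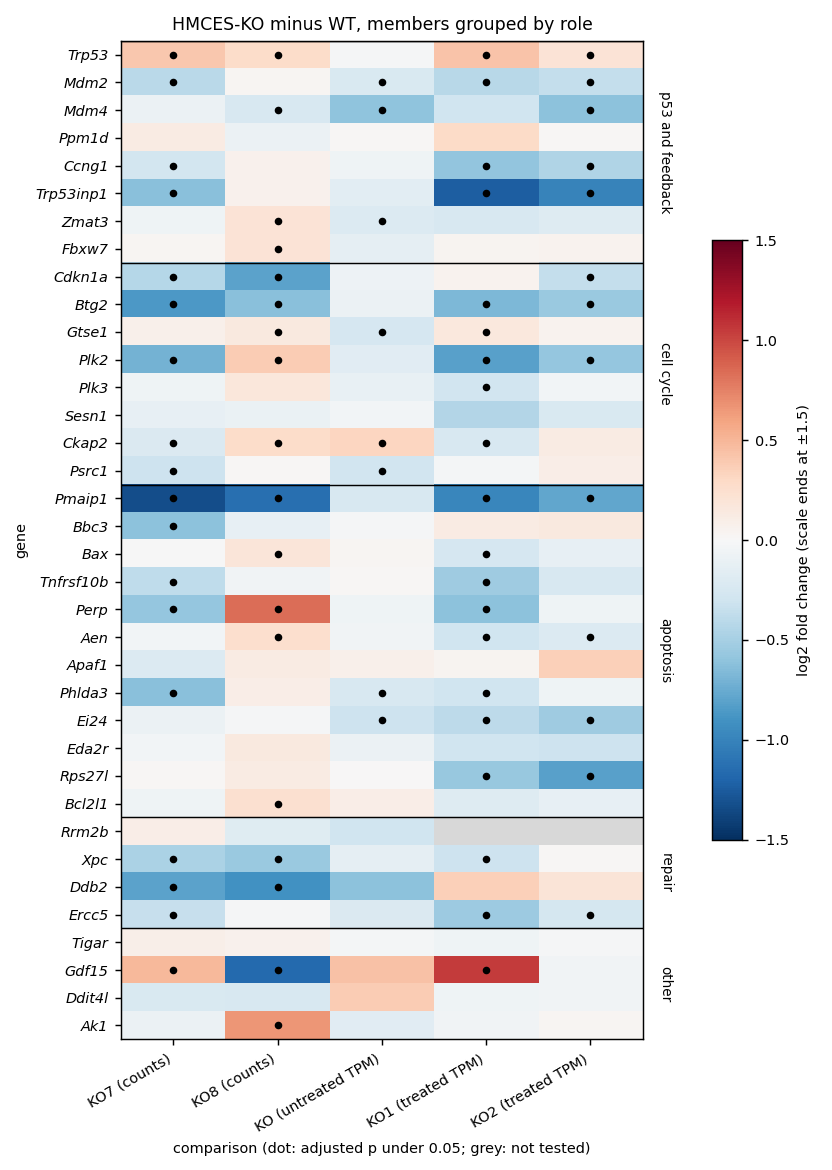
Log2 fold change of HMCES-KO against WT for the 36 tested members (rows, grouped by role) in 5 comparisons (columns), in colour from −1.5 to 1.5; a dot marks an adjusted p under 0.05 and grey a gene that was not tested. Btg2 and Pmaip1 are lower with a dot in KO7, KO8, KO1 and KO2, Trp53 is higher with a dot in the same 4 columns, and Perp, Plk2 and Gdf15 take opposite colours in KO7 and KO8.

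Trp53 transcript was higher in both untreated lines of the count table. It measured 249 and 287 CPM in WT, 337 and 340 in KO7, and 302 and 324 in KO8. Every library of either line lay above both WT libraries. The log2 fold change was 0.41 ± 0.07 (SE) in KO7 (edgeR adjusted p = 6.34e-05) and 0.27 ± 0.07 in KO8 (adjusted p = 0.0027, and 0.0693 without the second KO8 library). The lines did not pass the test of their difference (−0.13 ± 0.07, adjusted p = 0.144). The untreated TPM libraries had the same gene at 343 and 346 TPM in WT and 342 and 341 in HMCES-KO, a change of −0.01 ± 0.03 (limma adjusted p = 0.823). After treatment it was at 184 to 223 TPM (median 200) in the 8 WT libraries, 286, 261, 264 and 280 in KO1 and 249, 231, 243 and 213 in KO2, in the order activin A, SB431542, BMP4 and LDN193189. All KO1 libraries lay above all WT libraries. KO2 overlapped WT taken over all treated tables, while each KO2 library lay above both WT libraries of its own table. Both lines were called higher than WT in the fit of treatment and line (0.43 ± 0.05, limma adjusted p = 1.88e-05, and 0.20 ± 0.05, adjusted p = 0.0092), and KO2 without its BMP4 library had an adjusted p of 0.0547.

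Mdm2, the ligase that degrades p53, fell in KO7 and not in KO8. It was at 174 and 157 CPM in WT, 119 and 119 in KO7, and 167 and 161 in KO8, so that KO7 lay below WT and KO8 within the WT range. The change was −0.41 ± 0.06 in KO7 (edgeR adjusted p = 3.52e-05) and 0.03 ± 0.06 in KO8 (adjusted p = 0.687), and the lines differed by 0.44 ± 0.06 (adjusted p = 1.7e-05). Untreated Mdm2 in the TPM table was at 177 and 169 TPM in WT and 149 and 147 in HMCES-KO (−0.22 ± 0.04, limma adjusted p = 0.0244), a call that ended when either WT library was left out (adjusted p = 0.130 and 0.0729). After treatment WT ranged from 149 to 223 TPM with a median of 186. KO1 had 151, 147, 130 and 117 TPM and KO2 had 161, 161, 118 and 130, in the same order of treatments, and each was below both WT libraries of its own table. The fit gave −0.42 ± 0.06 for KO1 (limma adjusted p = 9.33e-05) and −0.36 ± 0.06 for KO2 (adjusted p = 0.000473).

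Ccng1 (cyclin G1, which restrains p53 together with MDM2) and Trp53inp1 (a p53-induced nuclear protein) followed Mdm2 in KO7. Ccng1 was at 357 and 319 CPM in WT, 273 and 260 in KO7 and 344 and 339 in KO8. KO7 lay below WT, and KO8 lay inside its range. Its change was −0.28 ± 0.06 in KO7 (edgeR adjusted p = 0.000755) and 0.06 ± 0.06 in KO8 (adjusted p = 0.423). Trp53inp1 was at 275 and 225 CPM in WT, 157 and 152 in KO7 and 257 and 250 in KO8, a fall of 1.54-fold in KO7 (−0.62 ± 0.07, adjusted p = 8.44e-07) and 0.07 ± 0.07 in KO8 (adjusted p = 0.47). KO8 exceeded KO7 by 0.34 ± 0.06 for Ccng1 (adjusted p = 0.000137) and by 0.69 ± 0.07 for Trp53inp1 (adjusted p = 2.19e-07).

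After treatment both genes fell in both lines. Trp53inp1 showed the largest fall of any member there: WT had 54.2, 50.8, 51.0 and 51.0 TPM in the activin A and SB431542 tables and 25.2, 24.4, 21.8 and 28.2 in the BMP4 and LDN193189 tables, KO1 had 16.4, 19.2, 12.2 and 12.02, and KO2 had 20.9, 19.05, 14.2 and 16.1. No HMCES-KO library reached any WT library. The log2(TPM + 1) change was −1.23 ± 0.13 in KO1 (limma adjusted p = 3.4e-06) and −1.004 ± 0.13 in KO2 (adjusted p = 3.58e-05). Ccng1 fell by 0.59 on the log2 scale in KO1 (SE 0.07, adjusted p = 9.85e-06) and by 0.45 in KO2 (SE 0.07, adjusted p = 0.000203), from 99.4 to 157 TPM in WT (median 127) to 82.7, 98.95, 68.9 and 81.7 in KO1 and 104, 108, 80.2 and 76.7 in KO2. Neither gene was called in the untreated TPM table: Ccng1 was at 276 and 281 TPM in WT and 265 and 266 in HMCES-KO (adjusted p = 0.234), and Trp53inp1 at 172 and 159 against 145 and 151 (adjusted p = 0.107), without overlap in either gene.

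Of the other members near p53, Mdm4 fell in KO8 (−0.24 ± 0.06, edgeR adjusted p = 0.00413), among the untreated TPM libraries (−0.61 ± 0.05, limma adjusted p = 0.00282; 128 and 122 TPM in WT, 81.9 and 81.3 in HMCES-KO) and in KO2 (−0.61 ± 0.12, adjusted p = 0.0017). In KO7 its change was −0.08 ± 0.06. Zmat3, which encodes an RNA-binding target of p53, rose in KO8 (0.20 ± 0.05) and fell in the untreated TPM table (−0.20 ± 0.05, adjusted p = 0.0454). Fbxw7, a substrate receptor of a ubiquitin ligase, rose in KO8 only among these comparisons (0.21 ± 0.07, adjusted p = 0.0286). Ppm1d, the phosphatase that reverses p53 activation, was called in none of the comparisons of a line with WT, with changes from −0.09 to 0.29. Counted as a group, the 8 genes gave 1 higher and 3 lower in KO7, 3 higher and 1 lower in KO8, 0 higher and 3 lower in untreated TPM, 1 higher and 3 lower in KO1 and 1 higher and 4 lower in KO2. Called were 4 of 8 in KO7 and 4 of 8 in KO8, beside 38.2% and 38.9% of all genes, 3 of 8 in untreated TPM beside 16%, 4 of 8 in KO1 beside 32.7% and 5 of 8 in KO2 beside 28.9%.

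**Figure D2:**
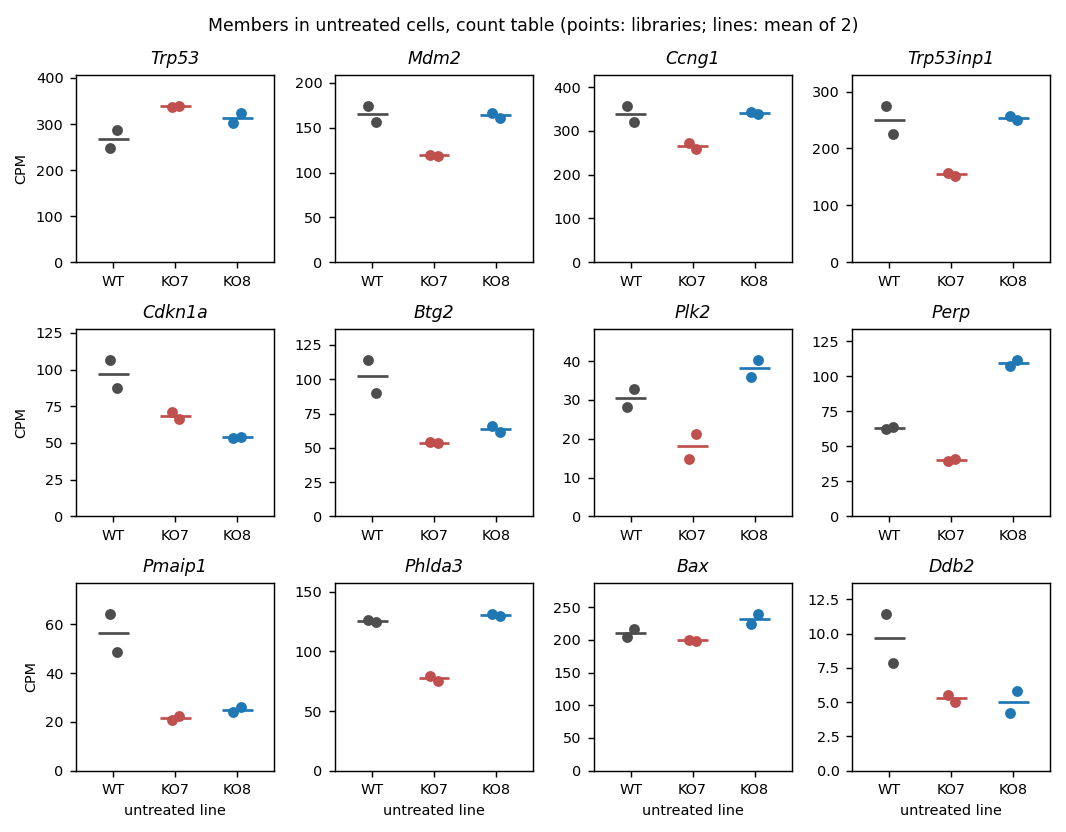
CPM in untreated cells for 12 members, 1 panel each, by line; points are libraries, lines are means of 2, and each vertical axis starts at 0. Btg2 and Pmaip1 lie below WT in both lines, while Mdm2, Ccng1, Trp53inp1 and Phlda3 lie below WT in KO7 and beside it in KO8, and Perp lies below WT in KO7 and above it in KO8.

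Cdkn1a, which encodes the cyclin-dependent kinase inhibitor p21 and is the best known arrest gene of p53, fell in both lines of the count table. It was at 107 and 87.4 CPM in WT, 70.9 and 66.1 in KO7, and 53.7 and 54.3 in KO8, with no overlap between any pair of groups. The change was −0.43 ± 0.08 in KO7 (edgeR adjusted p = 0.00032) and −0.80 ± 0.09 in KO8 (adjusted p = 4.83e-07). KO8 was below KO7 by 0.37 on the log2 scale (−0.37 ± 0.09, adjusted p = 0.00345), a call lost without the first KO7 library (adjusted p = 0.0846). This was 1 of the 2 members for which KO8 stood below KO7. Untreated TPM of Cdkn1a was 75.9 and 73.8 in WT and 73.9 and 68.0 in HMCES-KO (−0.08 ± 0.06, limma adjusted p = 0.431). After treatment it was at 92.4 to 144 TPM in WT (median 102), at 112, 110, 117 and 108 in KO1 and at 75.0, 64.9, 90.7 and 110 in KO2. KO1 was within the WT range taken over all treated tables and was not called (0.05 ± 0.12, limma adjusted p = 0.778). Against its own table it lay below both WT libraries with activin A (144 and 140 TPM). It lay above both with SB431542 (92.9 and 104), BMP4 (95.5 and 92.4) and LDN193189 (101 and 104). KO2 was called lower (−0.36 ± 0.12, adjusted p = 0.0358), and that call was lost when any of 5 libraries was left out: either activin A WT library, the second SB431542 WT library, or the KO2 library of the activin A or SB431542 table, with adjusted p from 0.0624 to 0.222.

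Btg2, an antiproliferative gene, was called lower in KO7, KO8, KO1 and KO2. It was at 114 and 90.2 CPM in WT, 54.3 and 53.4 in KO7, and 66.2 and 61.6 in KO8, and both lines lay below WT. The change was −0.86 ± 0.09 in KO7 (edgeR adjusted p = 3.36e-07) and −0.63 ± 0.09 in KO8 (adjusted p = 1.33e-05). In the untreated TPM table it was at 71.7 and 68.6 TPM in WT and 63.5 and 68.1 in HMCES-KO (adjusted p = 0.357). Treated WT cells had 127, 125, 110 and 105 TPM in the activin A and SB431542 tables and 58.8, 49.4, 60.6 and 49.8 in the other 2 tables. KO1 had 67.3, 50.6, 39.5 and 45.5 TPM and KO2 had 57.4, 65.7, 39.2 and 56.4. All were below WT of their own table except KO2 with LDN193189, which lay between the WT libraries. The line fit gave −0.67 ± 0.14 for KO1 (limma adjusted p = 0.00154) and −0.56 ± 0.14 for KO2 (adjusted p = 0.00657, and 0.0525 without its activin A library).

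Plk2, a polo-like kinase gene induced by p53, fell in KO7 and rose in KO8. It was at 28.2 and 32.8 CPM in WT, 14.9 and 21.2 in KO7, and 35.9 and 40.3 in KO8, and the 3 groups did not overlap. The changes were −0.71 ± 0.14 (edgeR adjusted p = 0.000456) and 0.38 ± 0.13 (adjusted p = 0.0245), and the lines differed by 1.08 ± 0.14 (adjusted p = 3.77e-06). The rise in KO8 was not called without the first WT library (adjusted p = 0.121) or without the second KO8 library (adjusted p = 0.214). Untreated TPM was 26.5 and 29.5 in WT and 23.2 and 26.2 in HMCES-KO (limma adjusted p = 0.281). After treatment WT spanned 42.0 to 99.6 TPM (median 71.5), KO1 had 37.2, 46.4, 33.4 and 31.6, and KO2 had 53.5, 52.9, 30.8 and 40.5, each below both WT libraries of its table. Plk2 fell in KO1 (−0.81 ± 0.12, adjusted p = 0.000114) and in KO2 (−0.58 ± 0.12, adjusted p = 0.00231).

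The mitotic members gave mixed results. Ckap2, for a spindle protein, fell in KO7 (−0.21 ± 0.07) and KO1 (−0.24 ± 0.06) and rose in KO8 (0.28 ± 0.07) and among the untreated TPM libraries (0.33 ± 0.04, limma adjusted p = 0.00786; 169 and 172 TPM in WT, 217 and 210 in HMCES-KO). The direct test separated KO8 from KO7 (0.49 ± 0.07, edgeR adjusted p = 1.07e-05) and KO2 from KO1 (0.36 ± 0.07, limma adjusted p = 0.0047). Psrc1, for a microtubule-binding protein, was at 246 and 232 CPM in WT, 181 and 185 in KO7 and 225 and 242 in KO8. It fell in KO7 (−0.32 ± 0.06, edgeR adjusted p = 0.00023), overlapped WT in KO8 (0.02 ± 0.06), and in the untreated TPM table was at 284 and 282 TPM against 240 and 223 (−0.29 ± 0.05, limma adjusted p = 0.0153, and 0.0723 or 0.0697 without the first or second WT library). Treated Psrc1 was at 299 to 349 TPM in WT, 305 to 361 in KO1 and 315 to 400 in KO2, and was not called in either line. Gtse1, whose product opposes p53 in G2, rose in KO8 (0.14 ± 0.05, edgeR adjusted p = 0.0475) and KO1 (0.16 ± 0.06, limma adjusted p = 0.0356) and fell in the untreated TPM table (−0.25 ± 0.05, adjusted p = 0.0223). Plk3 fell in KO1 (−0.29 ± 0.10, adjusted p = 0.0397), and Sesn1, for a stress-induced regulator of mTORC1, was called in no comparison of a line with WT (−0.44 to −0.04). The 8 arrest and mitosis genes thus gave 0 higher and 5 lower in KO7, 3 higher and 2 lower in KO8, 1 higher and 2 lower in untreated TPM, 1 higher and 4 lower in KO1 and 0 higher and 3 lower in KO2. Over all genes 19.2% were lower in KO7, 19.3% higher and 19.7% lower in KO8, 10.2% lower in untreated TPM, 20.3% lower in KO1 and 16.6% lower in KO2.

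Among the apoptosis genes, Pmaip1 (NOXA, a BH3-only activator of mitochondrial apoptosis) had the largest fall of any member in KO7. It was at 64.2 and 48.7 CPM in WT, 20.7 and 22.4 in KO7, and 23.8 and 26.2 in KO8. Each HMCES-KO library was far below each WT library. The fall was 2.51-fold in KO7 (−1.33 ± 0.12, edgeR adjusted p = 3.64e-08) and 2.19-fold in KO8 (−1.13 ± 0.12, adjusted p = 2.84e-07), and the lines did not pass the test of their difference (0.20 ± 0.13, adjusted p = 0.272). In the untreated TPM table it was at 54.0 and 52.7 TPM in WT and 43.1 and 47.2 in HMCES-KO, without overlap but not called (−0.24 ± 0.07, limma adjusted p = 0.0739). Treated WT libraries ranged from 8.86 to 16.5 TPM (median 13.7), KO1 had 6.26, 7.97, 4.83 and 6.04, and KO2 had 9.33, 4.04, 9.34 and 7.69, each below both WT libraries of its table. These values rest on 19 to 76 recovered reads a library. The change was −0.98 ± 0.19 in KO1 (adjusted p = 0.000958) and −0.78 ± 0.19 in KO2 (adjusted p = 0.00619).

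Bbc3 (PUMA), the other BH3-only gene, fell in KO7 and was not called in KO8, untreated TPM, KO1 or KO2. It was at 90.8 and 86.1 CPM in WT, 54.0 and 56.4 in KO7 and 79.7 and 77.7 in KO8. KO7 was lower by 1.53-fold (−0.61 ± 0.07, edgeR adjusted p = 1.69e-06), KO8 had −0.12 ± 0.07 (adjusted p = 0.188), and the lines differed (0.49 ± 0.07, adjusted p = 3.16e-05). Untreated TPM was 51.5 and 50.0 in WT and 48.2 and 51.8 in HMCES-KO (−0.02 ± 0.07). After treatment the changes were 0.12 ± 0.09 in KO1 and 0.15 ± 0.09 in KO2, from WT values of 63.3 to 86.4 TPM (median 76.0) to 84.3, 84.9, 92.5 and 71.3 in KO1 and 75.6, 76.8, 102 and 85.7 in KO2. Over the BMP4 and LDN193189 tables alone, with both lines as 1 group, Bbc3 was called higher (0.29 ± 0.09, limma adjusted p = 0.0372).

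Bax, the pore-forming effector at the mitochondrion, had the highest level per length of all members in WT, at a mean of 659 TPM computed from the counts. It was at 205 and 217 CPM in WT, 200 and 199 in KO7, and 224 and 240 in KO8. The groups did not overlap, but the shift was small: −0.01 ± 0.06 in KO7 (edgeR adjusted p = 0.901) and 0.19 ± 0.06 in KO8 (adjusted p = 0.0171). The rise in KO8 was lost without its second library (adjusted p = 0.22), and the difference between lines (0.20 ± 0.06, adjusted p = 0.0159) was lost without that library or either KO7 library (adjusted p from 0.127 to 0.239). Untreated TPM was 408 and 409 in WT and 425 and 412 in HMCES-KO (0.03 ± 0.03). After treatment Bax was at 680 to 849 TPM in WT (median 738), at 584, 585, 677 and 691 in KO1 and at 678, 693, 809 and 597 in KO2, and it fell in KO1 (−0.25 ± 0.06, limma adjusted p = 0.00396) but was not called in KO2 (−0.12 ± 0.06, adjusted p = 0.131).

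Perp, an apoptosis gene that also encodes a desmosome component of epithelia, moved in opposite directions in KO7 and KO8. It was at 62.4 and 64.1 CPM in WT, 39.7 and 41.0 in KO7, and 108 and 112 in KO8, with tight pairs and wide gaps. The changes were −0.58 ± 0.08 (edgeR adjusted p = 8.41e-06) and 0.84 ± 0.07 (adjusted p = 2.2e-08), and KO8 was 2.68-fold above KO7 (1.42 ± 0.08, adjusted p = 2.46e-11). A set of 6 trophectoderm markers (Cdx2, Elf5, Krt8, Krt18, Krt7, Tfap2c) summed to 70.9 to 73.4 CPM in WT, 64.0 to 68.2 in KO7 and 155 to 159 in KO8, with Elf5 at 0 in WT and KO7. Of the 5 of these that were tested, 0 rose and 2 fell in KO7, and 3 rose and 0 fell in KO8. Their part in the Perp result was not tested. Untreated TPM of Perp was 79.1 and 74.6 in WT and 70.0 and 76.4 in HMCES-KO (limma adjusted p = 0.504). In treated cells Perp was at 137, 134, 111 and 108 TPM in WT with activin A and SB431542 and at 59.6, 52.9, 59.2 and 54.2 with BMP4 and LDN193189. KO1 had 83.1, 76.6, 33.6 and 39.6 TPM, below WT in each table, and KO2 had 121, 107, 52.0 and 59.4. Perp fell in KO1 (−0.61 ± 0.06, adjusted p = 4.29e-06), was at −0.06 ± 0.06 in KO2, and differed between these lines (0.55 ± 0.08, adjusted p = 0.000373).

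Phlda3, whose product inhibits AKT, fell in KO7 and was not called in KO8. It was at 127 and 125 CPM in WT, 79.3 and 75.3 in KO7, and 131 and 129 in KO8. KO7 lay far below the other groups (−0.63 ± 0.06, edgeR adjusted p = 2.7e-07), KO8 was at 0.10 ± 0.06 (adjusted p = 0.211), and the lines differed by 0.73 ± 0.06 (adjusted p = 3.21e-08). In the untreated TPM table it was at 138 and 137 TPM in WT and 115 and 116 in HMCES-KO (−0.24 ± 0.04, limma adjusted p = 0.0184, and 0.0939 or 0.0874 without the first or second WT library). Treated WT cells spanned 502 to 771 TPM (median 567), KO1 had 502, 507, 435 and 474, and KO2 had 604, 545, 520 and 594. It fell in KO1 (−0.30 ± 0.07, adjusted p = 0.00363) and not in KO2 (−0.06 ± 0.07).

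Tnfrsf10b, the mouse TRAIL receptor gene, was low and its calls were fragile. It was at 24.5 and 21.8 CPM in WT, 17.8 and 15.99 in KO7, and 23.7 and 19.7 in KO8. It fell in KO7 (−0.38 ± 0.13, edgeR adjusted p = 0.0211), but not when the first WT library or either KO7 library was left out (adjusted p from 0.0636 to 0.163). In KO1 it fell by 0.53 on the log2 scale (SE 0.16, limma adjusted p = 0.0194), and not without the SB431542 or BMP4 library of that line (adjusted p = 0.104 and 0.0989). Treated values were 13.7 to 24.1 TPM in WT (median 17.0), 13.6, 11.1, 8.07 and 15.8 in KO1 and 14.0, 19.7, 12.4 and 13.6 in KO2, and untreated TPM was 25.6 and 22.5 in WT and 24.2 and 24.7 in HMCES-KO.

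Among the remaining apoptosis members, Aen, for an exonuclease that fragments DNA in apoptosis, rose in KO8 (0.25 ± 0.06, edgeR adjusted p = 0.00413) and fell in KO1 (−0.30 ± 0.05) and KO2 (−0.20 ± 0.05, limma adjusted p = 0.0099). Bcl2l1, which encodes the survival protein BCL-XL and so opposes the other members of its group, rose in KO8 (0.24 ± 0.07, adjusted p = 0.0116). Ei24, an endoplasmic reticulum gene of autophagy, fell in the untreated TPM table (−0.31 ± 0.04), in KO1 (−0.39 ± 0.13) and in KO2 (−0.53 ± 0.13, limma adjusted p = 0.00629), with −0.08 ± 0.06 in KO7 and −0.02 ± 0.06 in KO8. Rps27l, a ribosomal protein gene, fell in KO1 (−0.57 ± 0.14) and KO2 (−0.82 ± 0.14) but is close in sequence to Rps27, so reads may be split between them and its level is uncertain. Apaf1, which builds the apoptosome, and Eda2r, a TNF receptor family gene, were called in no comparison of a line with WT. Over the 12 tested apoptosis genes, 0 rose and 5 fell in KO7, 4 rose and 1 fell in KO8, 0 rose and 2 fell in untreated TPM, 0 rose and 8 fell in KO1, and 0 rose and 4 fell in KO2. The shares of all genes called, in that order, were 38.2%, 38.9%, 16%, 32.7% and 28.9%.

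Of the 3 nucleotide excision repair genes, Xpc and Ddb2 were called lower in KO7 and KO8, and Ercc5 in KO7 alone of these. Xpc, which recognises distorted DNA, was at 67.3 and 56.5 CPM in WT, 42.5 and 42.9 in KO7, and 38.3 and 43.4 in KO8, all below WT. The change was −0.47 ± 0.09 in KO7 (edgeR adjusted p = 0.000449) and −0.55 ± 0.09 in KO8 (adjusted p = 0.000125). Xpc lies on chromosome 6, and the 422 tested genes of that chromosome beyond 60 Mb had a median change of −0.39 in KO7 and −0.25 in KO8. Tigar, the other member there, had 0.08 ± 0.06 and 0.06 ± 0.06. The part of the region in the Xpc result was not tested. Untreated TPM of Xpc was 33.0 and 31.6 in WT and 29.5 and 29.1 in HMCES-KO (limma adjusted p = 0.257). After treatment WT spanned 31.6 to 45.8 TPM (median 35.9), KO1 had 29.5, 30.9, 30.5 and 27.8, and KO2 had 31.7, 42.1, 33.2 and 45.2. It fell in KO1 (−0.31 ± 0.10, adjusted p = 0.019, and 0.0953 or 0.0822 without the SB431542 or LDN193189 library of that line), where the region's median was −0.35.

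Ddb2, which loads the repair machinery at ultraviolet lesions, was low. It was at 11.4 and 7.89 CPM in WT, 5.55 and 5.03 in KO7, and 4.18 and 5.77 in KO8, without overlap with WT. The fall was −0.80 ± 0.22 in KO7 (edgeR adjusted p = 0.00581) and −0.91 ± 0.22 in KO8 (adjusted p = 0.00314). Neither call held without the first WT library (−0.51 in KO7 and −0.62 in KO8). The KO7 call was also lost without the second KO7 library (−0.74), and the KO8 call without the first KO8 library (−0.70). In the authors' annotation 33.6% of its exonic bases are shared with Acp2 on the other strand, and no strand setting is given, so its counts are uncertain. Untreated TPM was 16.1 and 10.1 in WT and 8.41 and 7.56 in HMCES-KO (−0.62 ± 0.22, limma adjusted p = 0.108). Treated values were 4.55 to 7.55 TPM in WT (median 6.14), 7.79, 7.70, 7.48 and 8.10 in KO1 and 3.84, 12.3, 8.29 and 5.21 in KO2, on 17 to 60 recovered reads, and no line was called (0.36 ± 0.20 and 0.20 ± 0.20).

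Ercc5, the XPG endonuclease gene, was at 55.5 and 51.4 CPM in WT, 41.8 and 38.1 in KO7, and 48.6 and 53.1 in KO8. It fell in KO7 (−0.35 ± 0.09, edgeR adjusted p = 0.00393, and 0.0777 without the second KO7 library) and overlapped WT in KO8 (−0.02 ± 0.09). KO8 was above KO7 (0.32 ± 0.09, adjusted p = 0.00954), a call lost without the second library of either line (adjusted p = 0.132 for KO7 and 0.144 for KO8). In the untreated TPM table it was at 29.4 and 32.6 TPM in WT and 25.05 and 28.1 in HMCES-KO (limma adjusted p = 0.186). Treated WT cells had 51.5 to 66.7 TPM (median 56.9), KO1 42.1, 47.5, 38.9 and 29.5, and KO2 45.2, 59.7, 40.9 and 46.0. It fell in KO1 (−0.55 ± 0.09, adjusted p = 0.000214) and in KO2 (−0.27 ± 0.09, adjusted p = 0.0326). The KO2 call was lost without its activin A or BMP4 library, or without the second WT library of the activin A or LDN193189 table (adjusted p from 0.0545 to 0.121).

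Rrm2b, the p53-inducible subunit of ribonucleotide reductase that supplies nucleotides for repair, was barely expressed. It was at 6.39 and 5.29 CPM in WT, 6.22 and 5.73 in KO7, and 4.81 and 5.196 in KO8, with changes of 0.10 ± 0.21 and −0.18 ± 0.22 that were not called. Untreated TPM was 5.79 and 5.48 in WT and 4.23 and 4.53 in HMCES-KO (−0.30 ± 0.16, limma adjusted p = 0.239). In the treated tables it had 0 to 6 recovered reads a library, beside 66 to 94 in the untreated TPM libraries. It did not pass the filter on low values in treated cells, so no difference could be tested there. The cause of its lower reads in the treated tables was not tested. Of the 4 repair genes, 0 rose and 3 fell in KO7, 0 rose and 2 fell in KO8 (38.2% and 38.9% of all genes called), and none was called in untreated TPM (16%; 0 of 4 by limma). Of the 3 tested in treated cells, 0 rose and 2 fell in KO1 (32.7%) and 0 rose and 1 fell in KO2 (28.9%).

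Gdf15, a secreted stress-response cytokine of the TGF-beta superfamily, showed the widest gap between lines. It was at 15.4 and 11.5 CPM in WT, 18.7 and 17.2 in KO7, and 5.22 and 6.35 in KO8, and no groups overlapped. It rose in KO7 (0.48 ± 0.15, edgeR adjusted p = 0.0154, and 0.0853 or 0.143 without the second WT or first KO7 library) and fell in KO8 (−1.17 ± 0.18, adjusted p = 5.21e-05). KO8 was 3.14-fold below KO7 (−1.65 ± 0.18, adjusted p = 4.3e-07). Untreated TPM was 8.96 and 7.33 in WT and 13.4 and 9.63 in HMCES-KO (0.44 ± 0.19, limma adjusted p = 0.166). Treated WT cells had 17.7, 22.9, 17.7 and 12.7 TPM with activin A and SB431542 and 51.4, 57.9, 54.2 and 43.7 with BMP4 and LDN193189. KO1 had 37.7, 30.2, 138 and 102 TPM, above WT in each table, and KO2 had 18.3, 14.3, 67.2 and 38.8. It rose in KO1 (1.05 ± 0.12, adjusted p = 6.49e-06) and not in KO2 (−0.05 ± 0.12), and the lines differed (−1.11 ± 0.14, adjusted p = 0.000131). Gdf15 lies on chromosome 8, whose 614 tested genes beyond 30 Mb had a median change of 0.33 in KO7, −0.03 in KO8 and −0.36 between KO8 and KO7, and whose 581 genes tested in treated cells had 0.25 in KO1 and 0.02 in KO2. The part of that region in the Gdf15 result was not tested.

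Ak1, an adenylate kinase gene, rose in KO8 and not in KO7. It was at 96.0 and 100.3 CPM in WT, 91.9 and 84.5 in KO7, and 148 and 153 in KO8. The change was 0.66 ± 0.07 in KO8 (edgeR adjusted p = 1.9e-07) and −0.08 ± 0.07 in KO7 (adjusted p = 0.367), and the lines differed by 0.75 ± 0.07 (adjusted p = 3.69e-08). Untreated TPM was 74.9 and 86.5 in WT and 73.6 and 69.8 in HMCES-KO (limma adjusted p = 0.21). Tigar, which diverts glucose flux to the pentose phosphate pathway, and Ddit4l, for an mTORC1 inhibitor, were called in no line, with changes of −0.07 to 0.08 and −0.25 to 0.38.

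**Figure D3:**
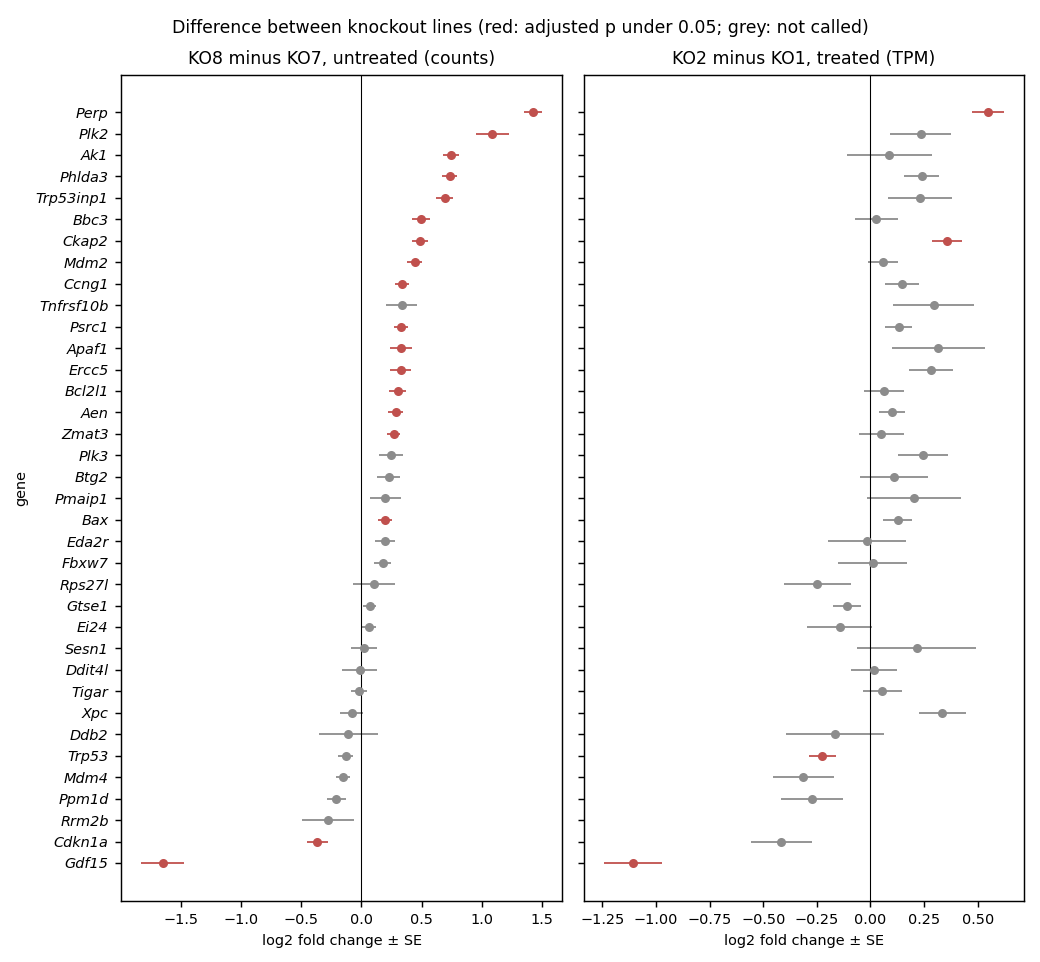
Difference between knockout lines for each tested member, as log2 fold change with its SE: KO8 minus KO7 in untreated cells on the left, KO2 minus KO1 in treated cells on the right, red where the adjusted p was under 0.05. Perp lies far to the right and Gdf15 far to the left in both panels, while Plk2, Phlda3 and Trp53inp1 are red on the left only.

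The separate untreated TPM table showed less. Of 36 members tested, 1 rose (Ckap2) and 7 fell (Mdm2, Mdm4, Zmat3, Gtse1, Psrc1, Phlda3 and Ei24), with 16% of 13314 genes called (5.80% higher and 10.2% lower) and a median of −0.09 beside −0.06 over all genes. Without the first WT library 2 members were called, and without the second 4. Btg2 and Pmaip1, called lower in KO7, KO8, KO1 and KO2, were not called there.

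In the treated cells more members were called lower than higher. In the fit of treatment and line, 3 rose and 17 fell in KO1 of 35 tested, where 32.7% of 12608 genes were called (12.4% higher and 20.3% lower), with a median of −0.29 beside −0.07. In KO2, 1 rose and 12 fell, where 28.9% of genes were called (12.2% higher and 16.6% lower), with a median of −0.12 beside −0.02. KO2 and KO1 differed in 4 members, 2 in each direction, where 6.58% of genes were called (3.89% higher and 2.70% lower): Perp and Ckap2 were higher in KO2, and Gdf15 and Trp53 lower. The Trp53 difference (−0.22 ± 0.06, adjusted p = 0.0365) was lost when any of 7 of the 16 libraries was left out: the first SB431542 WT library, the KO1 libraries of the SB431542, BMP4 and LDN193189 tables, or the KO2 libraries of the activin A, SB431542 and LDN193189 tables (adjusted p from 0.0505 to 0.118). Over the mean of the 4 tables with KO1 and KO2 as 1 group, 1 rose and 17 fell, with 34.5% of genes called (13.8% higher and 20.7% lower) and a median of −0.18 beside −0.04. A line's libraries from different tables entered these fits as if they were independent, and the p-values leave out how far independent knockout clones vary. After treatment 10 members fell in KO1 and in KO2: Mdm2, Ccng1, Trp53inp1, Btg2, Plk2, Pmaip1, Aen, Ei24, Rps27l and Ercc5. The 2 lines share the WT libraries. The share of all genes called lower in both lines was not computed, so this count has no background beside it.

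**Figure D4:**
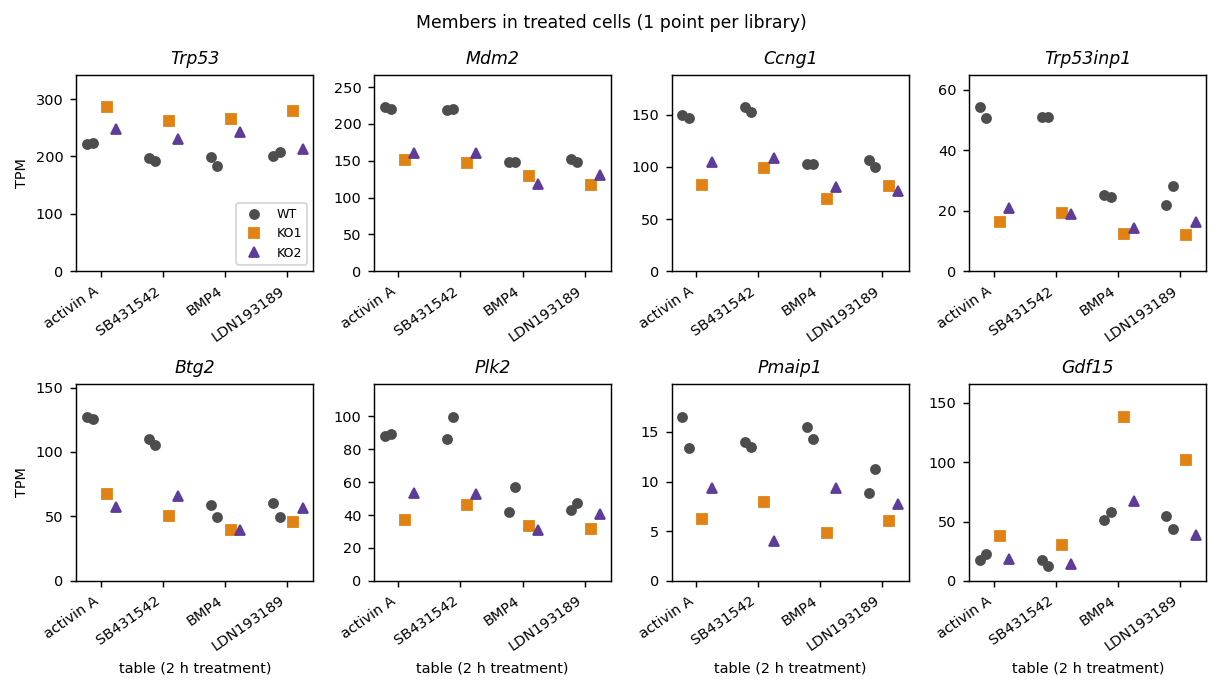
TPM of 8 members in the 4 tables of treated cells, 1 point per library (circles WT, squares KO1, triangles KO2), with each vertical axis from 0. Trp53inp1 lies below WT in every HMCES-KO library, Mdm2, Ccng1, Btg2, Plk2 and Trp53inp1 stand higher in WT in the activin A and SB431542 tables, and Gdf15 is highest in KO1 with BMP4 and with LDN193189.

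Table by table, with the 2 lines as the HMCES-KO group, 0 members rose and 9 fell with activin A (12.1% of genes called, 5.10% higher and 7.03% lower). The counts were 0 and 8 with SB431542 (12.1%, 5.41% higher and 6.73% lower), 0 and 2 with BMP4 (6.33%, 2.13% higher and 4.20% lower) and 0 and 2 with LDN193189 (2.29%, 0.793% higher and 1.5% lower). Trp53inp1 was called in each of the 4 tables, by −1.46 ± 0.18, −1.37 ± 0.18, −0.86 ± 0.18 and −0.79 ± 0.18 in that order. Mdm2 (−0.50 ± 0.09 and −0.51 ± 0.09), Btg2 (−1.01 ± 0.16 and −0.89 ± 0.16) and Plk2 (−0.97 ± 0.19 and −0.89 ± 0.19) were called with activin A and with SB431542, and Ccng1 in those and with BMP4 (−0.67 ± 0.12, −0.58 ± 0.12 and −0.46 ± 0.12). The count with activin A was 5 without either of its WT libraries or its KO1 library. With SB431542 it was 4, 3, 4 and 5 without the first WT, second WT, KO1 and KO2 library of that table. The counts with BMP4 and LDN193189 were 0 to 3 when any 1 of the 16 libraries was left out, 0 with BMP4 without either of its own WT libraries, and 0 with LDN193189 without either of its own WT libraries, either activin A WT library or either SB431542 HMCES-KO library.

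No member was called between a ligand and the inhibitor of its receptors. With activin A against SB431542, 0 members were called in WT (0.0159% of genes called, 2 members at an unadjusted p under 0.05) and 0 in HMCES-KO (0.103%, 6 members). With BMP4 against LDN193189, 0 were called in WT (0.0317%, 1 member) and 0 in HMCES-KO (0.0238%, 3 members), by limma and also by edgeR on the recovered reads. No member passed the test of whether the HMCES-KO effect differed between ligand and inhibitor (0.00% of genes in both pairs, 1 and 0 members at an unadjusted p under 0.05).

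More members differed between pairs of tables, a comparison added after the WT levels had been seen. In WT cells 12 members were higher and 1 lower in the activin A and SB431542 tables than in the BMP4 and LDN193189 tables, where 9.61% of genes were called (4.69% higher and 4.92% lower). Btg2 (1.08 ± 0.11), Perp (1.10 ± 0.17), Trp53inp1 (1.03 ± 0.13), Plk2 (0.93 ± 0.13), Mdm2 (0.56 ± 0.06) and Ccng1 (0.55 ± 0.08) were higher, and Gdf15 was lower (−1.52 ± 0.33). Log TPM of WT libraries correlated at 0.981 to 0.985 within a pair of tables and 0.973 to 0.974 across pairs, over genes that are not independent. A ligand and an inhibitor of the same receptors share each pair, and treatment pair and table cannot be told apart. In HMCES-KO cells 4 members were higher and 1 lower (3.03% of genes called, 1.46% higher and 1.57% lower). That count was 1 without the KO2 library of the activin A or SB431542 table, 3 without any 1 of the 8 WT libraries, and 10 without the KO2 library with LDN193189.

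Within the tables of activin A and SB431542, 1 member rose and 13 fell in HMCES-KO (26.2% of genes called, 11.4% higher and 14.7% lower), and within those of BMP4 and LDN193189, 3 rose and 8 fell (14.5%, 4.99% higher and 9.51% lower). The latter count was 5 or 6 without any 1 of the 4 WT libraries of those tables. Only Ak1 passed the test of the difference between these effects, among 35 members and 0.872% of genes called (−0.91 ± 0.18, limma adjusted p = 0.0353, with 11 members at an unadjusted p under 0.05). It was at 39.7, 48.4, 44.7 and 37.3 TPM in WT and 32.4, 32.9, 29.5 and 27.02 in HMCES-KO in the first pair of tables, and at 22.5, 23.2, 30.2 and 21.5 in WT and 30.4, 33.9, 30.8 and 38.1 in HMCES-KO in the second. HMCES-KO was below WT in the first pair and above it in the second, and the call was lost without any 1 of 13 of the 16 libraries, and kept without the first WT or either HMCES-KO library of the LDN193189 table. Trp53inp1 had −0.59 ± 0.18 (adjusted p = 0.171) and Btg2 −0.67 ± 0.16 (adjusted p = 0.0711) in the same test.

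Other genes of the pathway were taken from lists that are not members. Of 19 further p53 targets, 1 rose and 11 fell in KO7 (median −0.31, with 38.2% of all genes called) and 4 rose and 3 fell in KO8 (median −0.07, with 38.9%), and KO8 was above KO7 in 10 and below in 1 (28.2%). The largest changes in KO7 were in Tap1, a peptide transporter of antigen presentation (−1.37 ± 0.29), Dcxr, a carbonyl reductase (−1.34 ± 0.20), Ephx1, an epoxide hydrolase (−1.20 ± 0.20), and Gadd45a, a stress sensor of growth arrest (−0.90 ± 0.07). The largest in KO8 were in Kitl, the ligand of KIT (1.58 ± 0.25), Sfn, the 14-3-3 sigma gene (0.99 ± 0.08), Ephx1 (−0.63 ± 0.19) and Plxnb2, a semaphorin receptor (−0.40 ± 0.07). Sfn, which is also expressed in epithelia, fell in KO7 (−0.48 ± 0.09). Of the 5 tested trophectoderm markers, 0 rose and 2 fell in KO7, namely Krt18 (−1.45 ± 0.23) and Krt7 (−2.75 ± 0.66). In KO8, 3 rose and 0 fell. Among these markers, Tfap2c was at 0.07 ± 0.07 in KO7 and rose in KO8 (1.25 ± 0.07). In treated cells Sfn fell in KO1 (−0.65 ± 0.09) and in KO2 (−0.25 ± 0.09), while Tfap2c rose in KO2 (0.53 ± 0.14) and was at 0.00 ± 0.14 in KO1. Krt18 fell in KO1 (−0.77 ± 0.14) and was at 0.07 ± 0.14 in KO2. Of the 4 markers tested there, 0 rose and 1 fell in KO1, and 1 rose and 0 fell in KO2. The part of these markers in the Sfn result was not tested. Of the further targets in treated cells, 1 rose and 10 fell in KO1 (32.7% of all genes called) and 0 rose and 7 fell in KO2 (28.9%) of 18 tested.

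Of 18 tested regulators of p53, 3 rose and 3 fell in KO7 (19.0% and 19.2% of all genes), 9 rose and 1 fell in KO8 (19.3% and 19.7%), and 1 rose and 2 fell in untreated TPM (5.80% and 10.2%). In treated cells 2 rose and 9 fell in KO1 (12.4% and 20.3% of all genes) and 3 rose and 4 fell in KO2 (12.2% and 16.6%). In KO7 the largest changes were in Ppp1r13b, whose product steers p53 to apoptosis genes (−0.46 ± 0.13), Hipk2 (−0.38 ± 0.10) and Chek2 (−0.32 ± 0.09), both kinases of p53, and the checkpoint kinase gene Chek1 (0.26 ± 0.08). In KO8 they were in the p53 relative Trp73 (1.31 ± 0.22), Trp53bp1 of double-strand break signalling (0.61 ± 0.07), Cdkn2a (0.50 ± 0.17) and the deacetylase gene Sirt1 (0.37 ± 0.06). Cdkn2a, whose ARF product blocks MDM2, also rose in the untreated TPM table (1.15 ± 0.27), in KO1 (0.48 ± 0.17) and in KO2 (1.17 ± 0.17). It was not called in KO7 (−0.04 ± 0.17, edgeR adjusted p = 0.876), and KO8 stood above KO7 (0.54 ± 0.17, adjusted p = 0.0192).

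Cell-cycle genes that p53 represses through p21 and the DREAM complex gave 4 higher and 6 lower of 16 in KO7, 2 and 7 in KO8, 2 and 3 in untreated TPM, 2 and 5 in KO1 and 2 and 5 in KO2. The shares of all genes called were 38.2%, 38.9%, 16%, 32.7% and 28.9%. In KO7 the largest changes were in the replication helicase gene Mcm5 (0.56 ± 0.05), the mitotic phosphatase gene Cdc25c (−0.35 ± 0.11), and Foxm1 (−0.33 ± 0.06) and E2f1 (−0.30 ± 0.07), transcription factor genes of proliferation. In KO8 they were in E2f1 (−0.49 ± 0.07), Cdc25c (−0.34 ± 0.11), the anaphase activator gene Cdc20 (0.30 ± 0.06) and the helicase gene Mcm2 (−0.23 ± 0.05).

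Markers of other cells moved with the lines as well. A set of 8 endoderm markers summed to 196 to 217 CPM in WT, 75.8 to 80.0 in KO7 and 42.6 to 45.2 in KO8, with 7 of 8 lower in KO7 and 8 of 8 in KO8. A set of 6 fibroblast markers, for feeder cells, summed to 240 to 271 CPM in WT, 394 to 400 in KO7 and 234 to 235 in KO8, with Col3a1 at 0 in both WT libraries. Of the 4 fibroblast genes tested, Vim, an intermediate filament gene, rose in KO7 with the sum (0.97 ± 0.07), while Col1a1 (−1.46 ± 0.38), Pdgfrb (−1.82 ± 0.21) and Thy1 (−1.77 ± 0.13) fell. In KO8, 0 rose and 3 fell. In treated cells the endoderm sum was 34.0 to 83.6 TPM in WT, 16.7 to 42.3 in KO1 and 20.1 to 54.5 in KO2. Their part in the members' results was not tested.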

How the data were processed

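RNA-seq tables of 26 libraries were used as deposited. The authors' counts per gene came from featureCounts 2.0.1 in paired mode on mm10 RefSeq exons, per the file headers, with no strand option. The deposited TPM values of the other 5 tables carry no header on how they were made. FastQC 0.11.5, Bowtie2 2.3.3, SAMtools 1.9 and DESeq2 are named in the submitters' processing notes; other settings were not given in the sources used here. The library kit does not mark strand.

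Counts were tested with edgeR 4.0.16 (quasi-likelihood, TMM) over WT, KO7 and KO8, and log2(TPM + 1) with limma 3.58.1 (trend), in R 4.3.3, for genes reaching a TPM of 1 in 2 or more libraries. A TPM fold change is on the log2(TPM + 1) scale and understates the change of low genes. Benjamini-Hochberg adjustment ran over all genes tested, and called means an adjusted p under 0.05. Treated tables were fitted together, and separate fits used treatment and line. ES columns of the count table were taken as WT. CPM is a count divided by the library total. Reads were recovered from TPM with the count table's gene lengths for untreated cells. For treated cells those lengths served to find what 1 read is worth in each library, and 1 whole-number length per gene was then solved over the libraries, for 98.8% of genes. Of the solved lengths, 36.2% lay within 5% of the count table's, so levels in treated and untreated tables may not be comparable. Recovered reads serve only for depth and alternatives. The tests were checked on simulated data. Alternatives were the pseudocount, the filter, size factors, DESeq2 1.42.0, no trend, single tables, replicate blocks and leaving out each library. Members and lists were chosen with earlier results of these data known. Values in every library are given for Trp53, Mdm2, Cdkn1a, Ccng1, Pmaip1, Bax and Rrm2b and for up to 20 members in all that were called in several comparisons or differed most between lines. From each other list, up to 4 called genes with the largest change are named, and Cdkn2a and Sfn were followed across tables after their values were seen.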

Additional observations from a re-analysis of the deposited data

Results flagged for a closer look

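Of the members described in every library, 13 differed between the untreated lines when KO8 was compared with KO7 directly (edgeR, log2 KO8 minus KO7). Over all genes tested, 28.2% were called in that comparison. The members described were chosen partly because they were called in it, so the count is raised by the choice. The apoptosis genes Perp (1.42), Phlda3 (0.73), Bbc3 (0.49) and Bax (0.20) were higher in KO8, as were the arrest gene Plk2 (1.08), the mitotic gene Psrc1 (0.33) and the repair gene Ercc5 (0.32). The p53-proximal genes Trp53inp1 (0.69), Mdm2 (0.44) and Ccng1 (0.34) and the adenylate kinase gene Ak1 (0.75) were higher in KO8 too. Gdf15 (−1.65) and Cdkn1a (−0.37) were lower in KO8. After treatment, KO2 minus KO1 was −1.11 for Gdf15, 0.55 for Perp and −0.22 for Trp53 (limma). The HMCES-KO effect on Ak1 differed between the pairs of treated tables by −0.91, where table and treatment pair cannot be told apart. A check for a single outlying library was run only on the CPM of the 4 HMCES-KO libraries of the count table, and it flagged none. It pooled KO7 with KO8, so it could not single out a library where those lines differ. WT and treated libraries were not checked.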

How the results depend on the processing

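Taking the 4 untreated HMCES-KO libraries as 1 group gave 6 members called, 1 higher and 5 lower, in place of 18 in KO7 and 18 in KO8, and turned Gdf15 in KO7 (−0.10), Perp in KO7 (0.30) and Plk2 in KO8 (−0.0696), as its construction averages lines that differ. Limma without a trend called 1 member in untreated TPM, 5 with activin A, 5 with SB431542, 1 with BMP4, 0 with LDN193189, 2 between table pairs in HMCES-KO, 0 for the difference of effects and 6 in the BMP4 and LDN193189 tables; the cause was not tested. With a replicate block the counts were 5 with activin A, 1 with BMP4 and 1 with LDN193189, and the numbers did not pair the libraries (correlations of deviations −0.0406 to 0.0318). Tables fitted alone gave 0 with BMP4 and 0 with LDN193189 on fewer samples, and edgeR on recovered reads, added after seeing the data, gave 1 with LDN193189 and 2 for the difference of effects. Leaving out 1 library at a time gave 14 to 21 in KO7, 10 to 20 in KO8 (10 without the second KO8 library, 4 higher and 6 lower), 14 to 26 for KO8 against KO7, 2 to 8 in untreated TPM, 5 to 10 with activin A, 3 to 11 with SB431542, 0 to 3 with BMP4, 0 to 3 with LDN193189, 12 to 19 for the treated mean, 16 to 21 in KO1, 9 to 15 in KO2, 3 to 4 for KO2 against KO1, 10 to 15 between table pairs in WT, 1 to 10 in HMCES-KO, 0 to 1 for the difference of effects, 11 to 16 in the activin A and SB431542 tables and 5 to 12 in the other pair. Of called values of single members, 782 of 866 kept direction and call when 1 library was left out, and 416 of 453 under the other settings. The first of these tallies includes fits without a library that is in neither group of the comparison, which raises it. Both are raised by the choice of members, made partly because they were called. DESeq2 lost Gdf15, Ddb2 and Tnfrsf10b in KO7, Plk2 in KO8, and Bax and Ercc5 between lines. Over all genes, DESeq2 called 3312, 3286 and 2305 in KO7, KO8 and KO8 against KO7, in place of 5149, 5248 and 3797, and 1 group called 1552. Untreated TPM gave 2128, against 3587 by edgeR on recovered reads, 1311 with no filter and 339 with no trend. BMP4 gave 798, against 443 with no trend, 444 with the block and 39 fitted alone, and LDN193189 gave 289, against 86, 125 and 1. Ligand against inhibitor called at most 13 genes in any of the 4 contrasts, so its ratios are not listed. With 2 libraries per group, and 1 of each line per treated table, small differences could not be resolved.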
